A study of Mus musculus with 2 samples.

Results

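The last exon of a gene carries the end of its coding sequence, the stop codon and the 3′ untranslated region. A total of 17058 last exons were described, 1 for each autosomal protein-coding gene whose longest basic GENCODE vM21 transcript (mm10) has at least 3 exons, out of 20807 such genes. Genes with Zfp symbols (388) and genes with fewer exons (3361) were left out. A coding part was present in 16119 last exons and an untranslated part in 16748. In 939 the stop codon lay upstream, so that they held no coding sequence, and 310 held no untranslated sequence. Their CpG sites made up 1.99% of the 13366464 autosomal sites of replicate 1 and 2.03% of the 4882356 sites of replicate 2. Replicate 1 covered 73971 sites in coding parts and 192172 in untranslated parts, and replicate 2 covered 25615 and 73293. At least 1 site was covered in 15764 last exons in replicate 1 and in 13718 in replicate 2, and 1263 had none in either.

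SCoTCH-seq tethers both strands of a DNA fragment and reads unmodified cytosine (C), 5-methylcytosine (M) and 5-hydroxymethylcytosine (H) on both strands of each CpG site. It was run on genomic DNA of E14 cells, a mouse embryonic stem cell line, kept on gelatin with LIF and serum (10% FBS in the sample labels, another share in the study's methods). The 2 libraries are replicates of 1 condition, with no treated or control group. Each call is 1 of 9 CpG states, written with the plus strand first, and mirror images were summed, which leaves 6 states: unmodified (CC), methylated on both strands (MM) or on a single strand (MC/CM), hydroxymethylated on a single strand with the other unmodified (HC/CH) or methylated (HM/MH), and hydroxymethylated on both (HH). A level is the share of all calls in a class of sites. Mean depth was 10.6 calls per autosomal site in replicate 1 and 6.37 in replicate 2, and sites with fewer than 5 calls had been removed by the authors. Exact Clopper-Pearson intervals at 95% reached at most 0.120 points either side of a class level in replicate 1 and 0.245 points in replicate 2. They cover counting error only, and the replicates lie farther apart than that.

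DNA methyltransferases methylate CpG sites across most of the genome, gene bodies included, and CpG-rich stretches tend to escape this. TET enzymes oxidise 5-methylcytosine to 5-hydroxymethylcytosine, which tends to be enriched in transcribed genes and at some regulatory elements. In RNA, the 3′ untranslated region binds microRNAs and RNA-binding proteins, and its end is set by a polyadenylation signal, usually AATAAA. The values here are all of DNA, so they describe the sequence that encodes these RNA parts.

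The coding and untranslated parts are unlike as sequence. The median coding part was 155 bp long (quartiles 93 and 267) and the median untranslated part 957 bp (363 and 2033). Coding parts had a GC content of 51.6% and 2.64 CpG sites per 100 bp, and untranslated parts 43.5% and 1.09. Their ratio of observed to expected CpG was 0.397 and 0.231. Repeat-masked bases made up 6.07% of coding and 18.1% of untranslated sequence. The stop codon was TGA in 50.8% of the 16026 read, TAA in 26% and TAG in 23.1%. Of the 16737 transcript ends, 61.3% held AATAAA in the last 40 bp of the sense strand, 13.8% held ATTAAA without AATAAA, and 25.0% held neither.

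Sequences around single CpG sites show what was read. The windows below are 30 bases long on the sense strand, read from GRCm38.p6 with the CpG site in capitals, and each is the best covered site of its part in both replicates together. They come from 4 genes with a largely unmodified coding part and a largely methylated untranslated part, and from 4 genes with the opposite arrangement over their parts, in each direction the 4 widest CC gaps called in both replicates.
Cdr2l, coding part (chr11:115393869-115393898, plus strand): agtgtgcgcaggcgCGgtatgtctatcctg
Cdr2l, untranslated part (chr11:115396026-115396055, plus strand): agttctgtagcagcCGatcagcgtcacctt
Npas3, coding part (chr12:54067881-54067910, plus strand): gacagccgtgacagCGacgacagcttcgag
Npas3, untranslated part (chr12:54071479-54071508, plus strand): aagatgaaggaagcCGatggagaaatgtaa
Mon1a, coding part (chr9:107901311-107901340, plus strand): ctgagccttcttacCGgcgcgcagctgagc
Mon1a, untranslated part (chr9:107902813-107902842, plus strand): ccacagggtcatacCGatcctagatgatga
Cux1, coding part (chr5:136274826-136274855, minus strand): acagcatcatccacCGcctggagaaggctg
Cux1, untranslated part (chr5:136272098-136272127, minus strand): gtctgttccttaacCGcagccttaaatctg
Nynrin, coding part (chr14:55870961-55870990, plus strand): tttcctatgcctccCGgaccacggtggata
Nynrin, untranslated part (chr14:55874415-55874444, plus strand): ctttgatgccgtttCGtttcctaacccttc
Cx3cl1, coding part (chr8:94779939-94779968, plus strand): gacatctccaccacCGtttggccgagtcct
Cx3cl1, untranslated part (chr8:94782189-94782218, plus strand): gagccgcagcagccCGagtgcactatatcc
Sec14l3, coding part (chr11:4076269-4076298, plus strand): tatagcttcgtccaCGccaagaaggtcagc
Sec14l3, untranslated part (chr11:4077352-4077381, plus strand): gctaagtagccactCGgtgacatatagtct
Slc4a3, coding part (chr1:75558815-75558844, plus strand): ggactctgaagatgCGgagccgaactttga
Slc4a3, untranslated part (chr1:75560496-75560525, plus strand): tatgaaagttgagtCGggttgccataacaa

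At the Cdr2l coding site all 12 calls of replicate 1 and all 7 of replicate 2 were CC, and at its untranslated site 9 of 12 and 5 of 7 were MM. The Npas3 coding site had 13 CC calls of 13 and 7 of 7, and its untranslated site 17 MM calls of 19 and 3 of 6. At Nynrin the arrangement was turned, with 17 MM calls of 22 and 5 of 7 in the coding part and 20 CC calls of 23 and 5 of 5 in the untranslated part. Mon1a and Cux1 had CC in all 9 and 6, and all 8 and 5, calls of their coding sites. Cx3cl1 had 10 MM calls of 15 and 4 of 8 in the coding part and 12 CC calls of 15 and 4 of 7 in the untranslated part. Not every single site followed its part. The untranslated site of Slc4a3 had 7 CC and 14 MM calls of 26 in replicate 1 and 5 CC and 4 MM of 10 in replicate 2, and that of Sec14l3 had 7 CC and 2 MM of 11 and then 4 CC and 6 MM of 11. Single sites carry few calls, so the results below rest on sums over genes and classes.

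Untranslated parts were less often fully unmodified and more often fully methylated than coding parts. CC made up 21.5% of calls in untranslated and 30.6% in coding parts in replicate 1, and 18.0% and 27.0% in replicate 2. MM made up 55.5% and 49.4% in replicate 1, and 60.03% and 53.2% in replicate 2. MC/CM, methylation on a single strand, made up 12.8% and 9.37% in replicate 1 and 14% and 10.6% in replicate 2. The untranslated minus coding difference averaged -9.10 ± 0.0837 points for CC, 6.46 ± 0.460 for MM and 3.37 ± 0.0416 for MC/CM (SD, n = 2 libraries). All 19 autosomes had these signs in each replicate (adjusted p = 7.63e-06, exact sign-flip permutation test over autosomes, two-sided, whose smallest possible unadjusted p is 3.8e-06). Autosomes of 1 library are not replicates, so these p-values concern the consistency of a difference along the genome and not between cultures. With at least 10 calls per site, which leaves few sites of replicate 2, the MM difference of replicate 2 did not pass. Within single genes the size of the gap depended on how many sites were required. With 5 CpG sites or more per part it was smaller than in summed calls. The median CC difference was then -1.31 points over 3283 genes of replicate 1 and -2.91 over 676 of replicate 2. Where both parts held 10 CpG sites or more, the median was -5.60 points over 983 genes and -9.21 over 112. At that minimum it stayed smaller than in summed calls in replicate 1 but not in replicate 2.

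The CC and MM differences went with CpG density. Restricted to sites with 2 to 5 CpG sites within 100 bp either side, a choice made after seeing the data, the sign of both turned. CC was then 19.5% in untranslated and 17.5% in coding parts in replicate 1, a difference of 1.92 points on the side of the untranslated part, and 16% and 14.4% in replicate 2, a difference of 1.59 points. MM was lower in untranslated parts, by -2.89 points in replicate 1 and -2.33 in replicate 2. These differences passed the exact sign-flip permutation test, with adjusted p = 0.00046 and 0.0035 for CC and 2.3e-05 and 0.00046 for MM. MC/CM kept its direction, with 0.957 and 1.00 points more in untranslated parts (exact sign-flip permutation test, adjusted p = 2.3e-05 and 0.0028). Of the coding sites of replicate 1, 27526 had this density, 29286 had 6 to 10 and 15089 had 11 or more, while of the untranslated sites 128048, 37007 and 4074 did.

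HC/CH was slightly lower in untranslated parts. It made up 5.22% of calls against 5.53% in coding parts in replicate 1, and 4.72% against 5.35% in replicate 2. The differences of -0.315 and -0.631 points held their sign in 17 and 18 of 19 autosomes (exact sign-flip permutation test, adjusted p = 5.6e-05 and 2.3e-05). At 2 to 5 CpG sites they were 0.192 and -0.0446 points and did not pass (exact sign-flip permutation test, adjusted p = 0.074 and 0.63). With at least 10 calls per site the HC/CH difference of replicate 2 did not pass either. HM/MH, hydroxymethylation opposite methylation, was 4.48% in untranslated and 4.49% in coding parts of replicate 1 (exact sign-flip permutation test, adjusted p = 0.51), and 3.06% and 3.40% in replicate 2 (adjusted p = 8.2e-05 by the same exact permutation test). Miscalls touch these values. Synthetic duplexes with MM gave HM/MH calls at rates of 4.51% and 0.467% in replicates 1 and 2, and those with MC gave HC calls at rates of 3.49% and 0.615%. These rates rest on few duplex CpG sites, 2 with MM, 2 with MC and 1 with its mirror image CM. The correction also uses only 1 site with HC, 1 with its mirror image CH, and 1 with HM. Each site was assigned the state it was called as most often. After correction by each replicate's own call rates, the untranslated minus coding difference was -0.436 and -0.665 points for HC/CH and -0.320 and -0.370 points for HM/MH, and all 4 passed the same exact permutation test. For HM/MH of replicate 1 the correction takes off more where MM is higher. That pass therefore depends on the MM miscall rate, which rests on 2 duplex sites, and by itself is not read as a difference in HM/MH. In replicate 2, where that rate was 0.467%, HM/MH already differed as called (3.06% against 3.40%). HH was at most 0.579% in either part, with 0.521% and 0.209% in untranslated and 0.579% and 0.320% in coding parts. Corrected by the call rates, it was 0.0401% and 0.189% in untranslated and 0.139% and 0.302% in coding parts. MM duplexes were called HH in 0.709% of calls in replicate 1.

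Against last introns, the untranslated parts carried more hydroxymethylation. HC/CH was 5.22% against 4.57% in replicate 1 and 4.72% against 4.06% in replicate 2, a difference of 0.654 ± 0.00675 points (SD, n = 2 libraries). It had this sign in 19 and 18 of 19 autosomes (exact sign-flip permutation test, adjusted p = 1.5e-05 and 2.7e-05). At 2 to 5 CpG sites it was 0.559 and 0.528 points and still passed (exact sign-flip permutation test, adjusted p = 4.6e-05 and 0.00045). HM/MH was also higher, by 0.183 and 0.377 points. Corrected by the call rates, HC/CH differed by 0.691 points in each replicate. MM was 57.8% and 62.1% in introns, and the untranslated minus intron difference was -2.25 and -2.06 points for MM and -0.880 and -0.908 points for MC/CM. CC was higher by 2.25 and 1.89 points, but in replicate 2 this did not pass at 2 to 5 CpG sites (0.922 points) or at 10 calls or more per site (0.991 points). Across all autosomal sites HC/CH was 4.07% and 3.67%, below the levels of both parts of the last exon.

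The first kilobase after the transcript end, outside annotated exons, was less methylated than the untranslated part before it. Sites near transcription starts of neighbouring genes were kept in this flank. CC was 27.1% and 24.2% in this flank, and the untranslated minus flank difference was -5.68 and -6.25 points in replicates 1 and 2. MM was 51.1% and 54.6%, and the untranslated parts exceeded it by 4.47 and 5.40 points. All 19 autosomes had these signs (exact sign-flip permutation test, adjusted p = 1.1e-05). They were kept at 2 to 5 CpG sites, where CC differed by -4.15 and -4.49 points. For HC/CH the untranslated minus flank difference was 0.0273 and -0.104 points (exact sign-flip permutation test, adjusted p = 0.99 and 0.16), and at 2 to 5 CpG sites it was -0.227 and -0.452 points and passed (exact sign-flip permutation test, adjusted p = 0.00014 and 6.5e-05).

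Coding parts of last exons were less methylated than the internal coding exons of the same transcripts. CC was 30.6% against 23.5% in replicate 1 and 27.0% against 20.1% in replicate 2, and the difference in MM was -5.74 and -6.28 points. Signs were the same in 19 of 19 autosomes (exact sign-flip permutation test, adjusted p = 9.2e-06). At 2 to 5 CpG sites the CC difference shrank to 1.09 and 1.43 points and the MM difference to -0.888 and -1.70 points, and both passed in both replicates (exact sign-flip permutation test, adjusted p = 0.020, 0.029, 0.020 and 0.020). HC/CH was higher by 0.0810 points in replicate 1 (exact sign-flip permutation test, adjusted p = 0.097) and by 0.386 points in replicate 2 (adjusted p = 0.0044 by the same exact permutation test), and at 2 to 5 CpG sites by 0.333 points in replicate 2, which did not pass. At 10 calls or more per site CC (3.89 points), MM (-2.94) and HC/CH (0.464) of replicate 2 did not pass either.

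**Figure D1:**
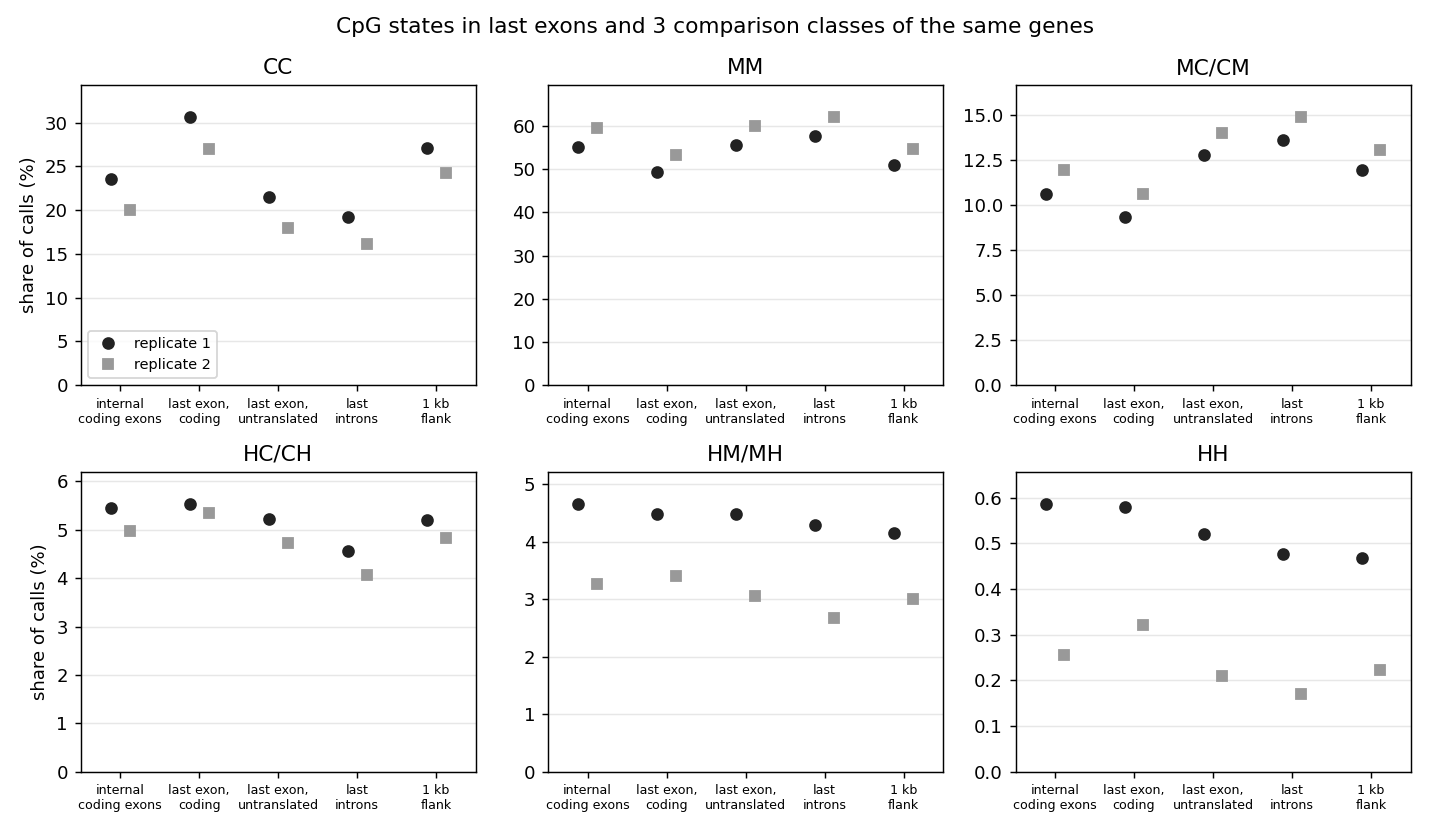
Share of all calls (%) of the 6 CpG states in the coding and untranslated parts of last exons, in internal coding exons, in last introns and in the 1 kb flank, with a circle for replicate 1 and a square for replicate 2. CC is highest in the coding part (30.6% and 27.0%) and HC/CH is lowest in last introns (4.57% and 4.06%), while HM/MH and HH differ mainly between the replicates.

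Untranslated last exons with the stop codon upstream were compared with those that hold it. They contributed 8330 sites in replicate 1 and 3123 in replicate 2. CC was 22% against 21.4% in replicate 1 and 17.6% against 18.0% in replicate 2. HC/CH was 5.36% against 5.21% and 4.75% against 4.72%. No state passed in either replicate (exact sign-flip permutation test, adjusted p from 0.84 to 0.90), and the differences of single autosomes ran from -4.68 to 9.20 points for CC in replicate 1, so that small differences were not detectable.

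CC, MC/CM and HC/CH varied with local CpG density in both parts. An isolated CpG site, with no other within 100 bp, had the lowest HC/CH level, 3.45% and 2.75% in coding and 3.92% and 3.36% in untranslated parts. HC/CH was highest at 6 to 10 CpG sites, with 6.66% and 6.41% in coding and 6.47% and 6.29% in untranslated parts, and was 4.76% and 5.07%, and 4.6% and 4.29%, at 11 or more. MC/CM fell without exception as density rose, from 16.2% and 17.0% to 3.79% and 4.56% in coding parts and from 16.9% and 17.8% to 3.40% and 3.91% in untranslated parts. CC stayed below 30% up to 10 CpG sites, and above that it was 69.0% and 67.8% in coding and 70.1% and 70.6% in untranslated parts. In the flank CC at 11 or more CpG sites reached 92.8% and 93.8%, with HC/CH at 1.05% and 0.749%. These are levels given without a test.

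**Figure D2:**
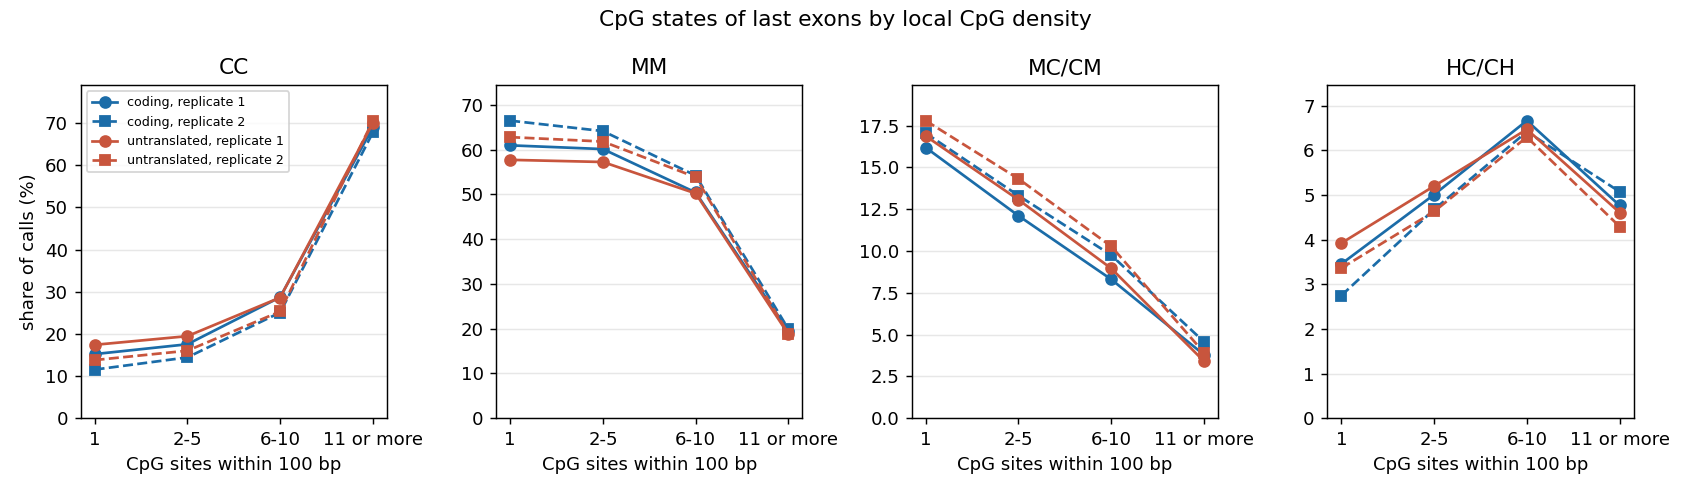
Share of calls (%) of 4 states against the number of CpG sites within 100 bp either side, the site included, in coding (blue) and untranslated (red) parts of last exons, with replicate 1 as circles and solid lines and replicate 2 as squares and dashed lines. HC/CH is highest at 6 to 10 CpG sites in all 4 lines (6.29% to 6.66%), and CC rises to between 67.8% and 70.6% at 11 or more.

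CC and HC/CH were nearly level across the stop codon. In the last 60 bp of the coding part CC was 26.5% and 23.5%, and in the first 60 bp after the stop codon it was 26.3% and 23.2%. HC/CH was 5.76% and 5.41% before and 5.84% and 5.37% after. MC/CM was 10.0% and 11.3% before and 10.6% and 12.4% after, and HH of replicate 2 was 0.382% before and 0.210% after. No test was run on these bins. In bins of 200 bp CC was 28.3% and 24.9% just before the stop codon and 25.8% and 22.5% just after it. Over longer distances CC was 35.0% and 29.6% at 200 to 400 bp before the stop codon, and 800 to 1000 bp after it CC was 21.5% and 17.2%. MC/CM went from 8.78% and 10.4% to 12.7% and 14.1% over the same span. Distant sites lie in long coding or long untranslated parts by construction, so the bins hold different sets of genes. Untranslated parts of up to 500 bp (5371 last exons) had a CC level of 29.5% and 26.4%, and those over 3000 bp (2240) had 18.6% and 15.1%. Their HC/CH was 5.31% and 4.95% in the short and 5.08% and 4.51% in the long ones. In the coding parts of the same last exons CC went from 33.8% and 30.5% to 25.6% and 22.8%, while HC/CH was 5.30% and 5.31% beside the short and 5.72% and 5.50% beside the long untranslated parts.

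Among the bins of 200 bp measured from the transcript end, HC/CH was lowest in the last 200 bp of the transcript. It was 5.31% and 4.79% between 200 and 400 bp before the end, 4.78% and 4.37% in the last 200 bp, 5.04% and 4.56% in the first 200 bp after it, and 5.38% and 4.87% in the next 200 bp. MC/CM showed the mirror image, with 12.4% and 13.5%, then 13.3% and 14.3%, then 12.3% and 13.3%. Replicate 1 had a lower HC/CH level in the last 200 bp than in the 200 bp before in 19 of 19 autosomes, and replicate 2 in 11 of 19. At 2 to 5 CpG sites the levels were 5.32% and 4.76% between 200 and 400 bp and 4.81% and 4.40% in the last 200 bp. The last 200 bp were then lower in 19 of 19 autosomes in replicate 1 and in 10 of 19 in replicate 2. By the signal held in the last 40 bp, HC/CH in the last 200 bp was 4.77% and 4.18% with AATAAA, 4.61% and 4.69% with ATTAAA and 4.92% and 4.65% with neither. Corrected by the call rates, HC/CH was 4.85% and 4.81% between 200 and 400 bp and 4.28% and 4.36% in the last 200 bp. This place was picked from the profile, so no test is given.

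Ends of 4 genes described below show the signal, in capitals, in the last 30 bases of the annotated transcript on the sense strand (GRCm38.p6).
Cpsf2 (chr12:102006395-102006424, plus strand): tatttcgctaataAATAAAagatgctgagc
Tet1 (chr10:62804577-62804606, minus strand): gggtggtataaAATAAAttttatacttcta
Esrrb (chr12:86521599-86521628, plus strand): aaatctAATAAAtaaggaaaggtctgctga
Ccnt2 (chr1:127808032-127808061, plus strand): attAATAAAgtttgtttattgacaaccaaa

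The marked copy starts 17 bases before the annotated end in Cpsf2, 19 in Tet1, 24 in Esrrb and 27 in Ccnt2. The Cpsf2 window holds 2 overlapping copies, of which the later is marked and the other starts 21 bases before the end. These ends are rich in A and T, and only the Cpsf2 window holds a CpG site.

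**Figure D3:**
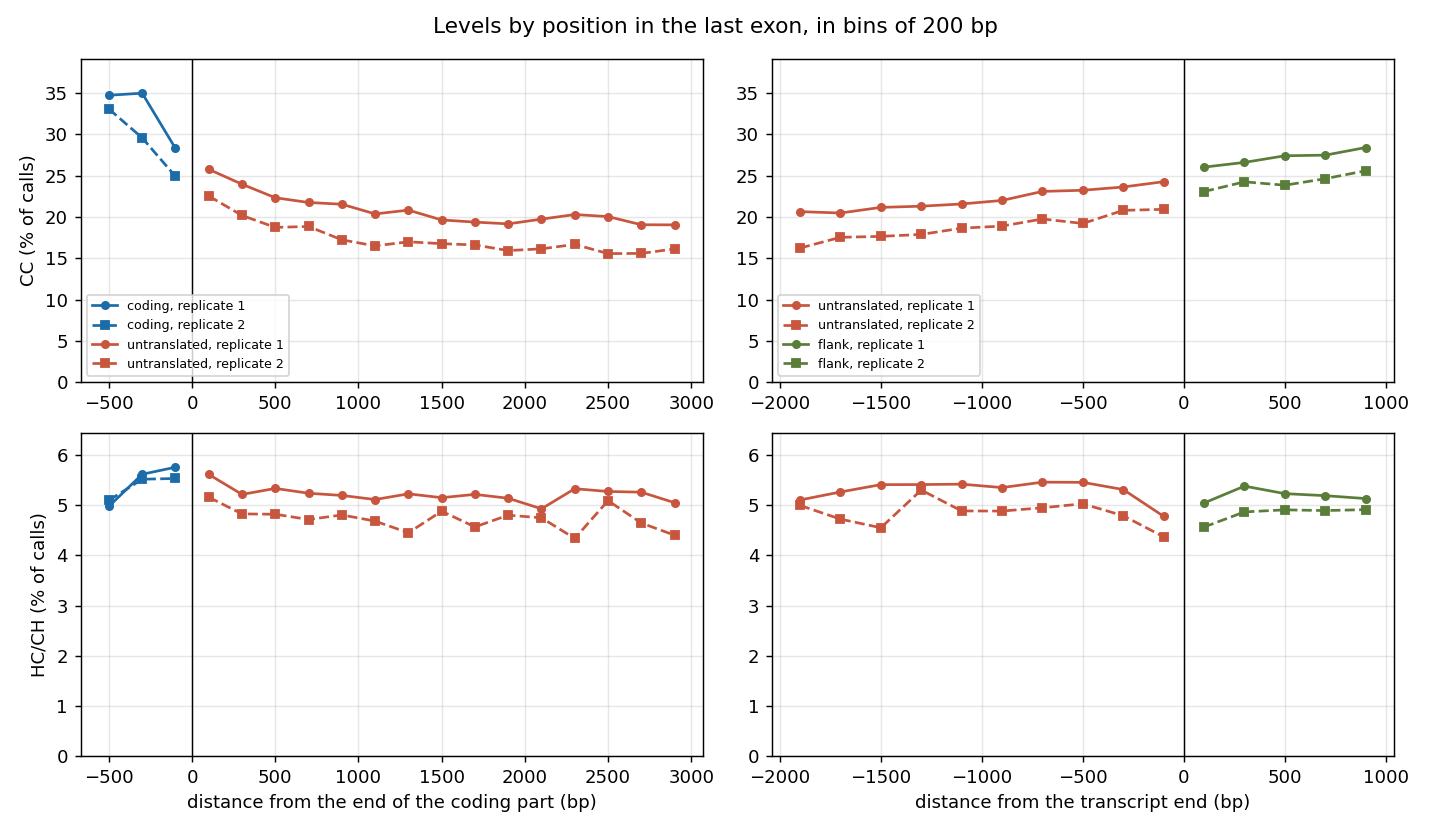
CC (top) and HC/CH (bottom) as % of calls in bins of 200 bp, by distance from the end of the coding part (left) and from the transcript end (right), with coding sites in blue, untranslated sites in red, flanking sites in green, replicate 1 as circles and replicate 2 as squares. CC is 35.0% and 29.6% at 200 to 400 bp before the stop codon and 28.3% and 24.9% in the last 200 bp before it. It is 21.5% and 17.2% at 800 to 1000 bp after it, and bins differ in the genes they hold. HC/CH is 4.78% and 4.37% in the last 200 bp of the transcript.

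HC/CH spanned a wider range over the bases on either side of the CpG site than between the parts of the exon. Among the 16 possible contexts on the sense strand, GCGC was the lowest in both parts and both replicates, with 3.67% and 3.39% in coding and 3.68% and 3.30% in untranslated parts. The highest in coding parts was ACGT, with 7.05% and 6.87%, and in untranslated parts ACGG, with 6.33% and 5.79%. ACGT made up 5.19% of coding and 9.58% of untranslated sites in replicate 1, and GCGC 6.48% and 4.5%. At 2 to 5 CpG sites ACGT stayed above GCGC, with 6.45% and 6.62% in ACGT against 3.29% and 2.68% in GCGC in coding parts, and 6.05% and 4.94% against 3.52% and 3.07% in untranslated parts. MM was higher in GCGC than in ACGT there, at 63.6% and 67.9% against 52.5% and 59.0% in untranslated parts. MC/CM was highest in TCGA among the 6 contexts compared at this density, with 15.6% and 17.3% in untranslated parts. The part of call rates that differ by context in these levels was not tested. All of this is given without a test.

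HC/CH varied little with the position within the codon. Where C and G were the first and second base of a codon, as in the arginine codons CGN, HC/CH was 5.43% and 5.08%, where they were its last bases it was 5.51% and 5.42%, and across the border of 2 codons 5.65% and 5.57%. CC was 27.7% and 24.1% in the first of these, 32.7% and 28.5% in the second and 32.1% and 28.8% in the last. The strands differed little too. After calls were read again by gene strand, methylation of the sense strand alone made up 6.48% and of the antisense strand alone 6.29% of calls in untranslated parts of replicate 1. This difference of 0.185 points had the same sign in 18 of 19 autosomes (exact sign-flip permutation test, adjusted p = 0.00037), and in replicate 2 it was 0.143 points in 13 of 19 (adjusted p = 0.35 by the same exact permutation test). None of the other 10 tests of strand passed. Hydroxymethylation of the sense and of the antisense strand was 2.62% and 2.60% in replicate 1 and 2.36% and 2.36% in replicate 2 for HC/CH in untranslated parts.

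Sites within 1 kb of a protein-coding transcription start, of the same or another gene, were few and much less modified in untranslated parts. There were 4359 and 1692 of them, with CC at 51.6% and 49.1% against 20.8% and 17.3% farther away. In coding parts the same split gave 34.2% and 33.1% against 30.4% and 26.6%, and HC/CH was 3.64% and 4.03% near a start and 5.68% and 5.45% farther away. HC/CH in untranslated parts differed less, with 4.84% and 4.66% near a start and 5.23% and 4.72% farther away. In repeat-masked untranslated sequence HC/CH was 4.54% and 3.92%, against 5.26% and 4.76% in the rest.

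Single genes were then compared part with part, where each part had at least 5 CpG sites, which held for 3283 last exons in replicate 1 and 676 in replicate 2. CC was higher in the coding part of 879 genes (26.8% of those tested) and in the untranslated part of 481 (14.7%) in replicate 1, and of 190 (28.1%) and 69 (10.2%) in replicate 2 (Fisher's exact test on summed calls, two-sided, adjusted p under 0.05 over all genes tested). Fisher's test takes calls as independent although sites within a part differ. A quasi-binomial model with the spread over sites called 551 and 159 genes in replicate 1, and 129 and 34 in replicate 2. It still takes sites as independent, although neighbouring sites can be read on the same molecule. Of the 643 genes tested in both replicates, 166 were higher in the coding part and 49 in the untranslated part in both by Fisher's test, and 103 and 19 by the quasi-binomial model.

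Fewer genes were called for HC/CH, and the share called rose with the number of sites. HC/CH is a rarer state than CC, so the lower count is not read as fewer genes that differ. HC/CH was higher in the coding part of 87 genes (2.65%) and in the untranslated part of 39 (1.19%) in replicate 1. In replicate 2 Fisher's exact test called no gene in either direction (0% and 0%), with 72 genes at an unadjusted p under 0.05, and the quasi-binomial model also called 0, with 81. Where both parts held 10 CpG sites or more, Fisher's exact test called 94 of 983 genes (9.56%) in replicate 1 and 3 of 112 in replicate 2. Over all 3283 genes of replicate 1 the quasi-binomial model called 27, of which 11 were higher in the coding and 16 in the untranslated part, so that the balance between the directions turned. Of 47 genes called in replicate 1 and tested in both, 37 had the same sign in replicate 2, beside 382 of all 643. At 5 CpG sites or more per part no gene was therefore called for HC/CH in both replicates, and none is named for it.

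The 4 widest gaps with CC higher in the coding part, among genes called in both replicates, were as follows. Cdr2l (ENSMUSG00000050910.5, last exon chr11:115393346-115396132) had a CC level of 93.3% in the coding part (interval 89.1 to 96.3) and 20.6% in the untranslated part (14.2 to 28.2) in replicate 1, and 97.4% (92.7 to 99.5) and 19.2% (9.63 to 32.5) in replicate 2. Npas3, a bHLH-PAS transcription factor (ENSMUSG00000021010.8, chr12:54067738-54072175), had 91.0% (88.2 to 93.3) and 18.3% (14.5 to 22.6), and 91.1% (85.3 to 95.2) and 3.8% (0.790 to 10.7). Mon1a, a subunit of the exchange factor for Rab7 (ENSMUSG00000032583.7, chr9:107901195-107903134), had 98.1% and 26.4%, and 100% and 24.6%. Cux1, a homeobox transcription factor (ENSMUSG00000029705.17, chr5:136266415-136275466), had 85.7% and 14.4%, and 98.1% and 6.02%. That the intervals of the parts lie far apart follows from the choice of these 4 genes, and the intervals take calls as independent.

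The opposite arrangement was most marked in 4 other genes. Cx3cl1, the chemokine fractalkine (ENSMUSG00000031778.13, chr8:94779560-94782427), had a CC level of 66.3% (58.7 to 73.3) in the untranslated and 13.1% (8.82 to 18.5) in the coding part in replicate 1, and 73.8% (58.0 to 86.1) and 8.45% (3.17 to 17.5) in replicate 2. Nynrin (ENSMUSG00000075592.10, chr14:55870128-55874736) had 74.2% and 15.9%, and 67.5% and 15.6%. Sec14l3, of a family of lipid-binding proteins (ENSMUSG00000054986.13, chr11:4076246-4077736), had 74.4% and 24.6%, and 77.3% and 19.4%. Slc4a3, an anion exchanger (ENSMUSG00000006576.16, chr1:75558813-75562172), had 61.3% and 11.5% in replicate 1, and in replicate 2 56.5% in the untranslated part and 0 of 32 calls in the coding part, which allows a share of up to 9.38%. All 8 genes also passed the quasi-binomial model in both replicates. Adjusted p lay between 2.6e-21 and 0.043 (quasi-binomial F test over sites, fitted gene by gene and adjusted over all genes tested). The model used the same calls by which these genes were picked, so the pass is not separate support.

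The parts of a gene went together only loosely. Where both parts held 10 CpG sites or more, Spearman's rho between coding and untranslated part was 0.636 for CC and 0.288 for HC/CH in replicate 1 (983 genes), and 0.492 and 0.135 in replicate 2 (112 genes). Genes are not independent replicates and the parts share a library and neighbouring fragments, so no p is given. Between replicates, rho for untranslated parts was 0.811 for CC and 0.518 for HC/CH over 2438 genes, and for coding parts 0.95 and 0.653 over 431 genes.

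The last exons richest in HC/CH were ranked on the lower of the replicates among 865 with at least 20 CpG sites in each, and are given as a description. Ccnt2, a cyclin of the elongation factor P-TEFb, had 12.3% (9.90 to 15.1) and 13.1% (7.98 to 19.97). Kpnb1, the nuclear import receptor importin beta, had 11.9% and 12.2%, Nacc2 11.2% and 12.4%, Usp30, a deubiquitinase of mitochondria, 11.1% and 13%, and Spata13, a guanine nucleotide exchange factor, 10.8% and 11.9%. The medians of the 865 were 5.48% and 4.65%. After correction by the call rates the same 5 had between 10.6% and 13.5%. HM/MH was highest in Dyrk3, a protein kinase, with 9.74% and 9.14%, followed by Usp30, Csnk2a2, a catalytic subunit of casein kinase 2, Dusp27 and Ccnt2, against medians of 4.66% and 2.98%. In replicate 1 the correction lowered HM/MH in these 5 to between 4.23% and 7.53%.

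The most CpG sites in a coding part were those of Plec, the cytolinker plectin, with 188 and 53 sites and an HC/CH level of 7.57% and 8.28% over the last exon. The most in an untranslated part were annotated to D10Wsu102e, with 912 and 312 sites over 122583 bp. Its HC/CH was 2.59% and 2.14% over the last exon and its CC in the untranslated part 4.94% and 4.05%, below the class levels.

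The genes of 6 lists were followed in both parts. At most 9 genes of a list were tested in replicate 1 and at most 4 in replicate 2. No gene of any list was called for HC/CH in either replicate. Of all genes tested, 2.65% were higher in the coding and 1.19% in the untranslated part in replicate 1, and 0% and 0% in replicate 2. With so few genes tested, this absence is not read as a result about the lists. For CC in replicate 1, the regulators of mRNA decay and RNA-binding proteins of untranslated regions had 4 genes higher in the coding and 1 higher in the untranslated part of 7 tested. The pluripotency regulators had 3 and 0 of 9, the enzymes of DNA methylation and demethylation 1 and 0 of 5, and the differentiated tissue genes 1 and 0 of 3. Over all genes tested 26.8% were higher in the coding and 14.7% in the untranslated part, and with so few genes per list these shares are not read as a result about the lists. None was called among 3 cleavage and polyadenylation factors and 1 housekeeping gene. In replicate 2, 2 of 2 genes of the decay list and 2 of 4 of the DNA methylation list were higher in the coding part, beside 28.1% of all genes tested (10.2% for the untranslated part), and none of the 2 genes tested in the other lists was called. In replicate 1 the median untranslated minus coding difference in CC was -24.0 points for the decay list, -2.69 for pluripotency, -4.49 for DNA methylation, 2.22 for differentiated tissue, -0.450 for polyadenylation and 4.81 for the housekeeping gene, beside -1.31 over all 3283 genes. In replicate 2 it was -45.2 points for the decay list (2 genes) and -8.57 for DNA methylation (4 genes), and the single genes of the pluripotency and polyadenylation lists had 9.02 and 13.2 points, the opposite sign to replicate 1, beside -2.91 over all 676 genes.

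Untranslated parts of the lists had median HC/CH levels of 8.30% and 7.36% for pluripotency regulators (18 and 8 genes with at least 5 sites), 6.62% and 6.25% for the decay list (31 and 26 genes), 6.21% and 3.93% for DNA methylation (12 and 8), 5.93% and 5.13% for differentiated tissue (13 and 7), 5.48% and 4.44% for polyadenylation (13 and 6), and 10.5% and 7.69% for housekeeping (5 and 3). The medians over all untranslated parts were 4.76% and 3.87%. These are descriptions over few genes and no test of a list was run.

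Among pluripotency genes, Esrrb, an orphan nuclear receptor, had an HC/CH level of 13.4% (9.38 to 18.2) and 8.80% (4.48 to 15.2) over its last exon. The LIF receptor subunits Il6st and Lifr had 7% and 5.47%, and 6.63% and 4.76%, with CC in the untranslated parts between 13.1% and 15.8%. The transcription factors Nr5a2, Tfcp2l1 and Sall4 had 6.15% and 11.3%, 8.39% and 4.96%, and 6.02% and 10.3%. The intervals of the replicates overlapped for each of these 6 genes.

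Among the enzymes of DNA methylation and demethylation, the hydroxylase Tet1 had an HC/CH level of 9.77% and 9.86% over its last exon, Tet3 7.11% and 10.2% and Tet2 6.98% and 5.70%. In the coding part of Tet1 it was 13.7% and 15.0%, and in its untranslated part 8.78% and 7.07%. Tet3 had 10.4% and 19% in the coding and 6.57% and 7.73% in the untranslated part. Tet2 had 6.28% and 11.3% in the coding and 7.38% and 2.86% in the untranslated part, so that its replicates went opposite ways. These differences did not pass in either replicate by Fisher's exact test. Dnmt3a, a de novo methyltransferase, had 5.69% and 5.00%, the uracil glycosylase Smug1 8.37% and 6.49%, and the ligase Lig3 5.68% in replicate 1 and 0 of 64 calls in replicate 2, which allows a share of up to 4.69%.

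Genes that act on untranslated regions of RNA varied widely in their own. Igf2bp1, an RNA-binding protein, had a CC level of 73.7% and 72.4% in its untranslated part. Trim71, an RNA-binding regulator of stem cells, had 46.6% and 35.8% there against 72.8% and 63.6% in its coding part. Tnrc6b, a partner of Argonaute proteins, had 33.3% and 25.6% against 93.1% and 88.1%. The Argonaute genes Ago2 and Ago3 had 28.1% and 30.1%, and 27.1% and 25.3%, in their untranslated parts, and the decapping enzyme gene Dcp2 had 11.1% and 3.70%. HC/CH over the last exon was 8.69% and 11.9% in Trim71 and 8.38% and 9.06% in Ago2. Of the polyadenylation factors, Cstf1 had 11.7% and 8.91%, Cpsf6 6.74% and 4.17%, Cpsf2 2.40% and 4.5%, and the poly(A) polymerase Papola 1.54% and 4.82%.

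Few housekeeping and tissue genes had enough sites. Tubb5, a beta-tubulin, was almost unmodified, with a CC level of 87.7% and 87.4% in its coding part and an HC/CH level of 2.66% and 1.89% over the last exon. Pfkl, a glycolytic enzyme, had an HC/CH level of 8.72% and 3.75%. The myelin gene Mbp had 8.26% and 6.85%, and the neuronal kinase gene Camk2a 8.97% and 4.95%.

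**Figure D4:**
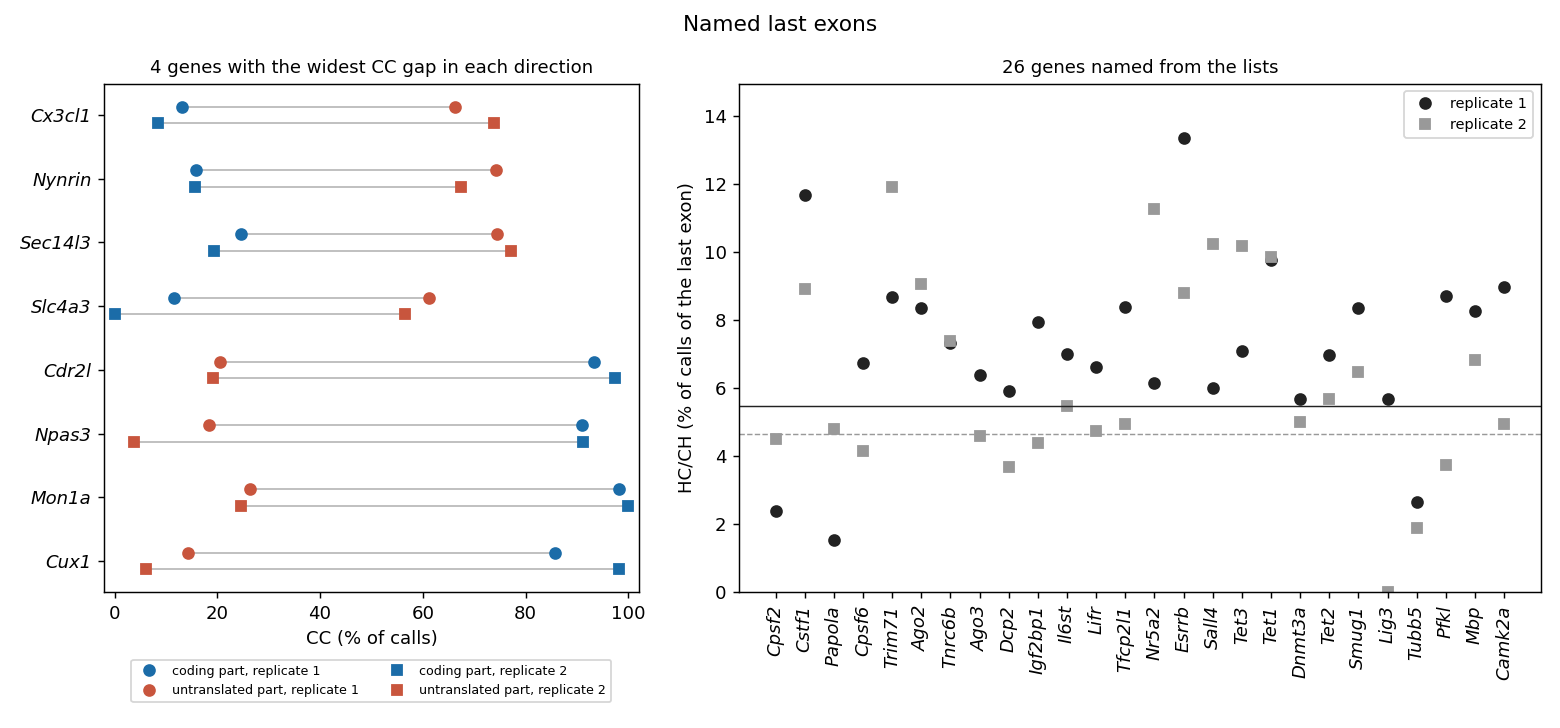
Left, CC (% of calls) in the coding (blue) and untranslated (red) part of 8 genes, the 4 with the widest gap in each direction; right, HC/CH (% of calls) over the last exon of 26 genes named from the lists, with replicate 1 as circles and replicate 2 as squares, and lines at the medians of 865 last exons (5.48% solid, 4.65% dashed). The gaps on the left have the same direction in both replicates by the rule that picked the genes. On the right, replicates of 1 gene can lie as far apart as different genes.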

How the data were processed

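SCoTCH-seq calls of 2 E14 libraries were used. Per the study's methods and the labels' processing notes (Cutadapt 4.6, Picard 3.1.1), the authors selected read pairs by adapter configuration, aligned inserts to mm10 (GRCm38) and removed duplicates. The authors deposited, for each site and state, the count of calls, the depth (also a count) and the percent, which is count over depth, for sites with at least 5 calls outside blacklisted regions. Values were not corrected by spike-ins, and rates of miscalling were computed here from the synthetic duplexes.

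Members and gene lists were chosen with earlier results of these data known. Exons came from GENCODE vM21, with the stop codon counted as coding, and sequences from GRCm38.p6 (RefSeq). Sites coding in 1 member and untranslated in another (1079 and 380 covered) were left out. Introns and flanks exclude annotated exons. Levels are summed calls over all calls, each replicate apart. Classes were compared with an exact sign-flip permutation test over 19 autosomes, with Benjamini-Hochberg adjustment over 12 tests (6 states, 2 replicates). Samples could not be compared as groups, since both belong to 1 condition, and the replicates may differ for technical reasons. Genes were tested with Fisher's exact test and, as an alternative, a quasi-binomial F test over sites, adjusted over all genes tested. Genes named were, by rule, the up to 6 of each list with the most CpG sites (10 or more in each of the replicates), the 4 widest differences in each direction among genes called in both replicates, the 5 highest HC/CH and HM/MH last exons with at least 20 CpG sites, and those with the most sites. Alternatives were correction by call rates, 10 calls per site, means over sites, sites in both replicates, sites away from promoters (1 kb) or from exons of other genes, leaving out a replicate and, for genes, at least 10 CpG sites in each part. Chosen after seeing the data were 2 more, a CpG density of 2 to 5 and the removal of repeat-masked sites. Python 3.11.15, NumPy 2.4.6, SciPy 1.17.1 and Matplotlib 3.10.9 were used, and tests were run on simulated data first. A count of 0 allows 3 counts of the total. Depth limits single genes, most of which had few sites in replicate 2.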

Additional observations from a re-analysis of the deposited data

How the results depend on the processing

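The untranslated minus coding difference turned at a CpG density of 2 to 5, in CC to 1.92 and 1.59 points and in MM to -2.89 and -2.33. HC/CH went to 0.192, the other sign, in replicate 1 and to -0.0446 in replicate 2, and passed in neither. The cause was not tested. With at least 10 calls per site, which leaves few sites of replicate 2, the values of replicate 2 no longer passed for MM (2.70) and HC/CH (-0.702) in this comparison, for CC (3.89), MM (-2.94) and HC/CH (0.464) of coding parts against internal coding exons, and for CC against last introns (0.991). At a density of 2 to 5 the same held in replicate 2 for HC/CH against internal coding exons (0.333) and for CC against last introns (0.922). HC/CH against internal coding exons passed in replicate 1 after correction by call rates (0.124) and without promoter sites (0.166), and HM/MH there turned to 0.114 after correction.

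Against the flank, HC/CH of replicate 1 turned negative with at least 10 calls (-0.141), without promoter sites (-0.132) and at a density of 2 to 5 (-0.227), each passing, and passed as a mean over sites (0.153). In replicate 2 it passed without promoter sites (-0.225) and at that density (-0.452). With each replicate left out in turn, the mean difference changed sign for HC/CH against the flank (-0.104 to 0.0273), HH against the flank (-0.0133 to 0.0529), HM/MH and HH against internal coding exons (-0.172 to 0.143, and -0.00739 to 0.0644), and CC and MM by the place of the stop codon (-0.422 to 0.510, and -0.418 to 0.640).

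Counts of genes moved most. For HC/CH of replicate 1, 27 genes were called by the quasi-binomial model and 19 with at least 10 calls, in place of 126, and in replicate 2 3 were called with at least 10 CpG sites, in place of 0. For CC, 710, 575 and 366 genes were called by the quasi-binomial model, with at least 10 CpG sites and with at least 10 calls in replicate 1, in place of 1360, and 163, 61 and 1 in replicate 2, in place of 259. The last 2 settings test fewer genes. Where both parts held 10 CpG sites or more, the share called rose, for HC/CH of replicate 1 from 3.84% to 9.56% (94 of 983 genes) and for CC from 41.4% to 58.5% in replicate 1 and from 38.3% to 54.5% in replicate 2. Leaving out exons of other genes or repeat-masked sites changed no call in the comparisons of classes. No paired analysis was possible because there is 1 group of samples, so no groups share replicate numbers. The parts were compared within each library and autosome.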
